A study of Mus musculus with 6 samples.

Results

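Overexpression of Rbbp7 in mouse embryonic stem cells (mESCs) was compared with the matched control cells across protein-coding genes with a longest transcript over 300 nt and a mean of at least 0.5 TPM. These limits kept 12384 genes of the 55401 genes listed in each library, and 21771 listed genes met the limits on type and length. The study profiled poly(A) RNA of 46C cells, an mESC line, in 6 libraries: 2 control, 2 Rbbp7 overexpression (Rbbp7 OE) and 2 Rbbp4 overexpression (Rbbp4 OE). By the study's methods, all cells carried the biotin ligase birA with a V5 tag from a lentivirus, selected with blasticidin. They then received a second lentivirus, selected with puromycin, that held the Flag-Avitag vector alone, the vector with Rbbp4 or the vector with Rbbp7. The control labels name 46C control cells only, and these were read as the cells with the vector alone. All groups grew on gelatin in serum with 3 µM Chir99021, an inhibitor of the kinase GSK3, 1 µM PD0325901, an inhibitor of the kinase MEK, and 1000 U per ml of the cytokine LIF. The cells were selected pools of infected cells, and nothing states that the 2 libraries of a group came from separate cultures, so p-values measure the spread between these libraries, which may be technical.

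RBBP7 is a histone-binding protein built as a WD40 propeller, and it is closely related to RBBP4. Both are shared subunits of several chromatin complexes: the deacetylase and remodeller NuRD, the SIN3 deacetylase and the histone H3K27 methyltransferase PRC2. The study also places RBBP4 in the chromatin assembly complex CAF-1. In mESCs these complexes are known for holding lineage genes at low levels and for supporting self-renewal.

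Rbbp7 (ENSMUSG00000031353.13, GRCm38 chrX:162760402-162779092) was measured at 239 and 237 TPM in the control libraries, at 725 and 748 TPM in Rbbp7 OE, and at 208 and 217 TPM in Rbbp4 OE. Both Rbbp7 OE libraries stood far above the other 4. The increase was 1.63 ± 0.047 on the log2(TPM + 1) scale (SE, n = 2 libraries per group, limma adjusted p = 0.000227). TPM is an estimate of a transcript's share of all transcripts, scaled by its length and to a fixed total in each library, so sequencing depth is unknown here, and a gene-level value cannot tell transcripts of the lentiviral cDNA from those of the chromosomal gene. Rbbp4 stood at 146 and 147 TPM in control and at 144 and 143 TPM in Rbbp7 OE, a difference of -0.03 ± 0.046 (SE, limma adjusted p = 0.803), against 269.97 and 271 TPM in Rbbp4 OE.

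The pluripotency markers of mESCs were high in all libraries. Pou5f1, the core pluripotency factor Oct4, was at 1577 and 1455 TPM in control and at 1574 and 1643 TPM in Rbbp7 OE. Markers of other cell types summed to little: the 4 primitive endoderm markers reached at most 1.1 TPM together in any of these 4 libraries, the 4 trophoblast markers at most 6.87 TPM, and Neurog2 was listed at 0 in every library. The neural sum, 90.6 to 100 TPM over 4 markers, was nearly all the tubulin Tubb3. The summed level of 5 fibroblast markers was 6.89 and 8.21 TPM in control and 18.2 and 10.8 TPM in Rbbp7 OE.

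Libraries of 1 group did not resemble each other equally. Rbbp7 OE replicate 1 held 98 genes more than 2-fold above all 5 other libraries, among them the chemokines Ccl2 and Ccl7, the calcium-binding S100a4, the matrix proteoglycan Bgn and the interferon-induced Isg15. Rbbp4 OE replicate 2 held 82 such genes, led by the liver genes Saa1, Saa2, Hp and Alb. The other 4 libraries held 6 to 12 each, and none of these genes was among the calls below. Without Rbbp7 OE replicate 1, 2 genes passed an adjusted p of 0.05, Rbbp7 and Adipor2. Without Rbbp7 OE replicate 2, 36 genes passed, 5 of them shared with the full comparison. Without both Rbbp7 OE replicate 1 and Rbbp4 OE replicate 2, a choice made after seeing the data, no gene passed by limma and 691 had an unadjusted p under 0.05. All 55 genes called below kept their direction and an unadjusted p under 0.05 in each of these fits.

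In the full comparison, 55 of 12384 genes (0.444%) passed a limma adjusted p of 0.05, 24 higher (0.194%) and 31 lower (0.25%). The 2 groups' libraries overlapped for none of the 55, against libraries that did not overlap for 45.8% of all tested genes. Of the 55 genes, 15 differed by more than 2-fold, 8 higher and 7 lower. At the study's threshold, an adjusted p under 0.01 with a fold over 2, 3 genes passed (0.0242%): Rbbp7, Mest and Adipor2. An unadjusted p under 0.05 was reached by 15.8% of genes, 7.3% higher and 8.51% lower. Over all tested genes, 48% had a log2 fold change above 0. The median log2 fold change was -0.0087, and it ranged from -0.06 to 0.04 over the 4 pairs of an Rbbp7 OE and a control library. TPM shows relative levels in bulk cells, so fewer cells that express a gene and less RNA per cell cannot be told apart.

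**Figure D1:**
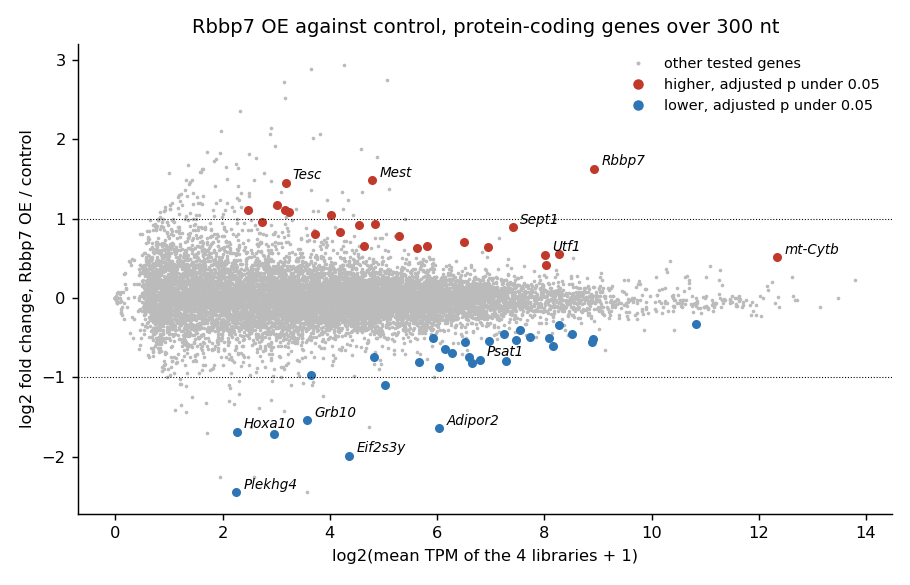
Log2 fold change of Rbbp7 OE over control (y axis) against log2 of the mean TPM of the 4 libraries plus 1 (x axis) for each tested gene. Red and blue points are the 24 higher and 31 lower genes at a limma adjusted p under 0.05, and dotted lines mark 2-fold; many genes beyond 2-fold at low TPM, in grey, did not pass.

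Mest and Adipor2 were the genes other than Rbbp7 to pass the stricter threshold, and the 250 bases before a start of each are shown because these genes carry the clearest change besides Rbbp7. The sequences are from RefSeq on GRCm38.p6, 5' to 3' on the strand of the gene, and the capitals mark CG dinucleotides, the sites of DNA methylation. Mest has 3 starts in the RefSeq table, and the one shown, the farthest downstream, is preceded by chr6:30737803-30738052 on the plus strand. The Adipor2 sequence is chr6:119388735-119388984 on the minus strand.
Mest: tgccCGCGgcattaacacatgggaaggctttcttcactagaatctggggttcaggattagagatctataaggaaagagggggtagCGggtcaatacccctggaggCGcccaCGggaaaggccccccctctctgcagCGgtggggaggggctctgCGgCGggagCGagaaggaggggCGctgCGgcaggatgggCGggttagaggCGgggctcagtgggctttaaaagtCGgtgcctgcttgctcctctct
Adipor2: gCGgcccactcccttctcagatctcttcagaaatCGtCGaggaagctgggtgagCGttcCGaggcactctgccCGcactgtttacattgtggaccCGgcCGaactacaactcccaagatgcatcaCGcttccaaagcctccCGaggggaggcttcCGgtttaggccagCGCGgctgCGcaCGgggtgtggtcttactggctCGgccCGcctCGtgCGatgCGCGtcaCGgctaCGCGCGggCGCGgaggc
The Mest sequence holds 14 CG dinucleotides and the Adipor2 sequence 27. The 32851 start sites of the table have a median of 6, with quartiles of 2 and 16, and 92.1% hold at least 1.

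Mest (ENSMUSG00000051855.15), an imprinted gene expressed from the paternal allele, was at 13.6 and 13.8 TPM in control and at 40.1 and 39.6 TPM in Rbbp7 OE. It rose by 1.48 ± 0.076 on the log2 scale (SE, limma adjusted p = 0.00285). Adipor2, a receptor for the fat-cell hormone adiponectin, was at 95.1 and 103 TPM in control and at 30.6 and 31.6 TPM in Rbbp7 OE. Its libraries were far apart between the groups and close within them, and it fell by 1.64 on the log2 scale (SE 0.075, limma adjusted p = 0.00171). Both genes had levels in Rbbp4 OE near those in Rbbp7 OE, 37.2 and 38.7 TPM for Mest and 24.2 and 24.9 TPM for Adipor2, and in the direct test of Rbbp7 OE against Rbbp4 OE neither passed (limma adjusted p = 0.656 and 0.125).

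The difference in that direct test uses no control library, but its spread was estimated from all 6 libraries. The test set the 2 overexpression groups apart for few of the 55 genes. It gave an adjusted p under 0.05 for 4 of them by limma: Rbbp7, Trh, Rnf4 and Odc1, and for 27 of all 12384 genes. An unadjusted p under 0.05 was reached by 27 of the 55 and by 2487 of all tested genes. At both levels the share was larger among the 55 genes than among all tested genes. The 55 were picked by small p in the same fit, from the same Rbbp7 OE libraries and spread. Their larger share is therefore no evidence of a difference between the overexpression groups. Trh, the precursor of thyrotropin-releasing hormone, was at 96.9 and 94.8 TPM in control, at 143 and 156 TPM in Rbbp7 OE and at 221 and 213 TPM in Rbbp4 OE. The SUMO-targeted ubiquitin ligase Rnf4 was at 104 and 112 TPM in control, 72.6 and 73.5 TPM in Rbbp7 OE and 44.5 and 42.6 TPM in Rbbp4 OE. Odc1, the first enzyme of polyamine synthesis, was at 344 TPM in both control libraries, at 270.2 and 271 TPM in Rbbp7 OE and at 191 and 194 TPM in Rbbp4 OE. For these 3 genes the Rbbp7 OE libraries lay between the control and the Rbbp4 OE libraries. All of the 55 genes except Rbbp7 differed from control in the same direction in Rbbp4 OE, against the same control libraries. All of these except Cited2 passed an adjusted p of 0.05 there by limma. The changes of the called genes below are therefore not particular to Rbbp7 OE. The overexpression groups share their controls, so the other values of Rbbp4 OE are given only beside those of Rbbp7 OE.

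**Figure D2:**
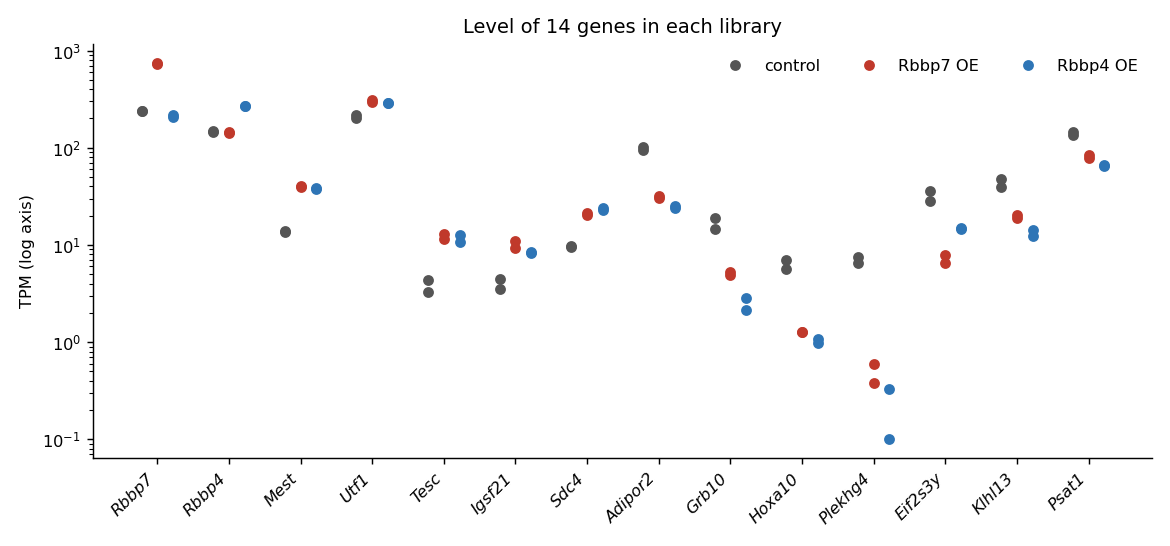
TPM (log axis) of 14 genes in each library, with 2 points per group: control (grey), Rbbp7 OE (red) and Rbbp4 OE (blue). For Rbbp7 the 2 Rbbp7 OE libraries stand at 725 and 748 TPM above the other 4, while for Mest, Adipor2 and most others both overexpression groups lie on the same side of control.

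Tesc, a calcium-binding protein, rose from 4.39 and 3.31 TPM to 12.9 and 11.4 TPM (log2 difference 1.45, limma adjusted p = 0.0334). It was at 12.7 and 10.8 TPM in Rbbp4 OE. Igsf21, a synaptic adhesion protein whose gene spans 220 kb, rose from 3.55 and 4.45 TPM to 9.35 and 11.1 TPM (log2 difference 1.17, limma adjusted p = 0.0485). The potassium channel Kcnh3, the GDP dissociation inhibitor Arhgdig, the signalling adaptor Grb7 and the heparan sulphate proteoglycan Sdc4 rose by 1.04 to 1.11 on the log2 scale. Smaller increases were measured for the oocyte and embryo protein Khdc3 (0.93), the X-linked Xlr3c (0.92), the septin Sept1 (0.89), the glycosyltransferase B3gnt7 (0.83) and the coronin Coro2b (0.81). Sept1 was among the most precisely measured, at 117 and 121 TPM in control against 221 and 219.6 TPM in Rbbp7 OE (limma adjusted p = 0.00316). Utf1, a chromatin protein of undifferentiated ES cells, rose from 215 and 203 TPM to 295 and 313 TPM (log2 difference 0.54, limma adjusted p = 0.0305). The damage-inducible Gadd45a, the actin-binding Tagln2, the Wnt regulator Dact2, the transcriptional co-regulator Cited2, the postsynaptic scaffold Dlgap3, the aldehyde dehydrogenase Aldh2 and the ubiquitin ligase Ubr4 also rose, by 0.42 to 0.78.

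Several of the largest decreases were in genes of low TPM. Plekhg4, a guanine nucleotide exchange factor, went from 6.57 and 7.6 TPM in control to 0.59 and 0.38 TPM and fell by 2.45 on the log2 scale (limma adjusted p = 0.0229). Eif2s3y, the Y-linked gamma subunit of translation initiation factor eIF2, was at 28 and 35.6 TPM in control and at 6.56 and 7.92 TPM in Rbbp7 OE, and fell by 1.99 (limma adjusted p = 0.0154). Ddx3y, the Y-linked RNA helicase, fell by 1.72 from 10.2 and 11.6 TPM to 2.91 and 2.31 TPM (limma adjusted p = 0.0421). These libraries did not overlap between the groups for any of the 3 genes. Grb10, an imprinted adaptor that restrains insulin receptor signalling, fell by 1.54 from 14.7 and 18.9 TPM to 4.86 and 5.27 TPM (limma adjusted p = 0.037). Klhl13, an X-linked adaptor of cullin ubiquitin ligases, fell by 1.1 from 39.8 and 47.4 TPM to 20.4 and 19.2 TPM (limma adjusted p = 0.0334).

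The other decreases were smaller. Psat1, of serine synthesis, fell by 0.78 from 134 and 144 TPM to 83.3 and 78.1 TPM (limma adjusted p = 0.0229). Prdx4, the peroxiredoxin of the endoplasmic reticulum, fell by 0.81, Gnpat, of plasmalogen synthesis, by 0.64, Aprt, of adenine salvage, by 0.6, Got2, the mitochondrial aspartate aminotransferase, by 0.53, and Gcsh, of glycine cleavage, by 0.49. The glucose transporter Slc2a3 and the glycolytic Tpi1 fell by 0.55 and 0.46. Gins2, a subunit of the replicative helicase, went from 126 and 114 TPM to 69.2 and 72.1 TPM and fell by 0.75 (limma adjusted p = 0.0289). The proteasome subunit Psmd7, the retinoblastoma-family partner E2f4, the corepressor Rcor2 and the cytoplasmic actin Actg1 fell by 0.51, 0.41, 0.45 and 0.33. The remaining decreases were in Rlbp1, Csrp1, Tbc1d13, Prrc1, Ttc13, Imp4, Rdm1, Arl6ip1 and Tmem33 and were between 0.51 and 0.97 in size.

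Gene lists were then read by their counts at a limma p under 0.05 before adjustment, called the nominal level here, beside the background of 7.3% higher and 8.51% lower, with no test of the list. These counts move with the libraries in the fit: without Rbbp7 OE replicate 1 the background was 4.68% higher and 5.32% lower, without control replicate 1 it was 5.78% and 12%, and without control replicate 2 it was 10% and 7.24%. Without both libraries that stood apart it was 2.77% higher and 2.81% lower, and the counts at that level were 2 of 13 FGF and ERK feedback genes higher, 3 of 24 cholesterol and 1 of 14 fatty acid synthesis genes lower, 6 of 17 Hox genes lower, and 2 higher and 1 lower of 11 mitochondrially encoded genes. Members of lists that did not pass the adjusted test are given by their values, and some were named after their values were seen.

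The subunits of the complexes that hold RBBP7 or RBBP4 differed little. Of 14 NuRD genes other than Rbbp7, 1 reached the nominal level, the scaffold Mta2, at 84.5 and 96.3 TPM in control and 113 and 118 TPM in Rbbp7 OE (log2 difference 0.35, limma adjusted p = 0.136). The median of the list was 0.12, and it was 0.02 without control replicate 1 and 0.21 without control replicate 2. Of 12 PRC2 genes, 1 did so, the accessory subunit Epop, at 599 and 571 TPM in control and 431 and 458 TPM in Rbbp7 OE (log2 difference -0.39, limma adjusted p = 0.058). The methyltransferase Ezh2 was at 108 and 112 TPM in control and 101 and 94.8 TPM in Rbbp7 OE. Of 15 genes of CAF-1 and the histone chaperones, 3 were lower at the nominal level, the acetyltransferase Hat1, the FACT subunit Ssrp1 and the chaperone Nasp, with log2 differences of -0.12 to -0.16. Without Rbbp7 OE replicate 1, 0 were lower and 1 was higher, and without control replicate 2, 1 was lower and 1 higher. None of 16 SIN3 genes reached this level by limma, and 1 of 11 remodeller genes of the NURF and ISWI list did, Chrac1 at -0.22. In the MuvB and DREAM list of 13 genes, E2f4 was the member that fell.

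Feedback genes of FGF and ERK signalling had higher values. These genes are induced by ERK activity, and some of them, such as the Sprouty inhibitors and the phosphatase Dusp6, dampen it. The cells grew with a MEK inhibitor. Of 13 tested members, 8 were higher and 0 lower at the nominal level (61.5%), and the median log2 fold change was 0.35, with medians of 0.27 to 0.37 over the 4 library pairs. None passed the adjusted test by limma. The immediate early gene Fos was at 3.97 and 3.89 TPM in control, 7.11 and 8.08 TPM in Rbbp7 OE and 5.48 and 6.4 TPM in Rbbp4 OE (log2 difference 0.8, limma adjusted p = 0.0964). Spry4 was at 3.88 and 4.21 TPM in control, 6.74 and 6.44 TPM in Rbbp7 OE and 2.24 and 2.44 TPM in Rbbp4 OE. The Rbbp7 OE libraries were the highest and the Rbbp4 OE libraries the lowest of the 6 for Spry4, and the direct test between them passed narrowly (limma adjusted p = 0.0499). The transcription factor Etv4 was at 74.4 and 73.8 TPM in control against 90.02 and 95.2 TPM. Dusp6 was at 8.78 and 9.77 TPM in control, 11.6 and 12.6 TPM in Rbbp7 OE and 8.39 and 8.65 TPM in Rbbp4 OE. Ier3 rested on 1 library, at 11.5 and 3.36 TPM in the 2 Rbbp7 OE replicates against 4.24 and 4.57 TPM in control. Without Rbbp7 OE replicate 1 the median of the list was 0.34, with 11 of 13 members above 0, 5 of them higher at the nominal level. Without any other single library 7 or 8 members were higher and 0 lower.

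**Figure D3:**
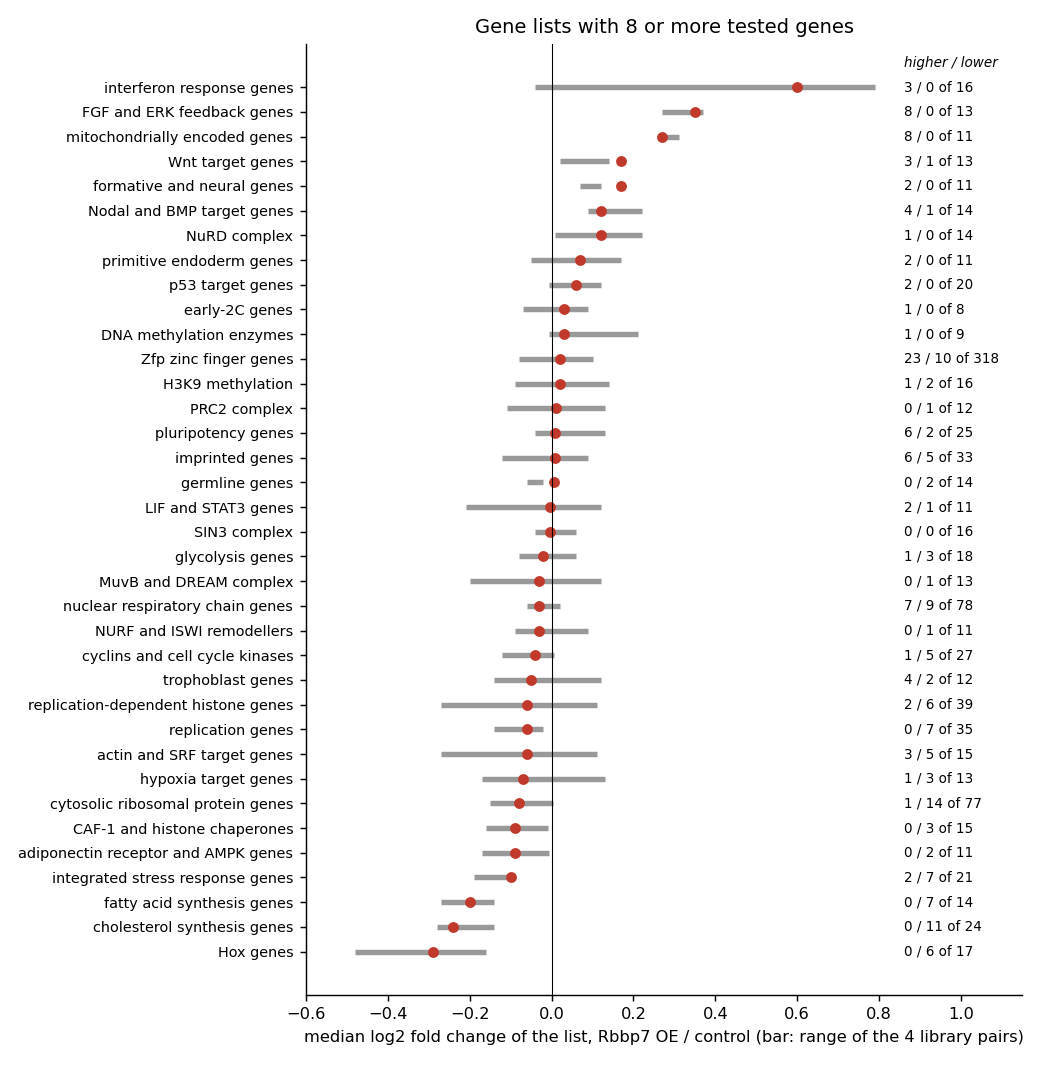
Median log2 fold change of Rbbp7 OE over control (red point) for each list with at least 8 tested genes, with grey bars from the lowest to the highest median of the 4 library pairs, so that a point can lie outside its bar. Numbers at the right give how many tested members passed the nominal level in each direction; FGF and ERK feedback genes (8 and 0 of 13) lie to the right of 0 and cholesterol synthesis genes (0 and 11 of 24) to the left, Hox genes have the lowest median, and the bar of the interferon list, the highest, runs from -0.04 to 0.79.

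Genes of cholesterol synthesis had lower values. Of 24 tested, 11 were lower and 0 higher at the nominal level (45.8%), and the median log2 fold change was -0.24, with pair medians of -0.28 to -0.14. Idi1, an isomerase early in the pathway, was at 60.7 and 63.5 TPM in control, 43.5 and 43.1 TPM in Rbbp7 OE and 27.3 and 25.96 TPM in Rbbp4 OE. Its Rbbp7 OE libraries lay between the other groups, with a direct test between the overexpression groups of limma adjusted p = 0.0365. Values of the enzyme Mvd (87.7 and 94.8 TPM against 68.7 and 65.5 TPM) were also lower in both Rbbp7 OE libraries. Nsdhl was an exception, at 22.8 and 23.5 TPM in control and 25.9 and 26.6 TPM in Rbbp7 OE. Fatty acid synthesis followed a similar count: 7 of 14 genes were lower and 0 higher at the nominal level, with a median of -0.2. The desaturase Scd1 was at 51.9 and 62.2 TPM in control and 39.8 and 38.8 TPM in Rbbp7 OE (log2 difference -0.52, limma adjusted p = 0.112), and the acyl-CoA synthetase Acsl4 at 7.07 and 7.59 TPM against 4.88 and 3.95 TPM. Without Rbbp7 OE replicate 1 the medians were -0.24 and -0.17, and 8 cholesterol genes and 4 fatty acid genes were lower at the nominal level. The count of lower fatty acid genes was also 4 without Rbbp7 OE replicate 2 and was 12 without control replicate 1, and the count of lower cholesterol genes lay between 7 and 12 whichever library was left out.

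The promoter sequences of Hmgcs1 and Idi1 are shown because sterol genes are known targets of SREBP factors, which bind the sterol element TCACNCCAC together with NF-Y at CCAAT boxes. Both motifs were searched on both strands of the 250 bases before each start, and capitals mark each match, so that a CCAAT box on the other strand reads ATTGG.
Hmgcs1: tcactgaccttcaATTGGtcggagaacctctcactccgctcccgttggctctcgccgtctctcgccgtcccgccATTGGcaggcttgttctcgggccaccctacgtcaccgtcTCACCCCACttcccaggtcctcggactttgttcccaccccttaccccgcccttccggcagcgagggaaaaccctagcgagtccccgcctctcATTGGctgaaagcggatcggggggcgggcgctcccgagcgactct
Idi1: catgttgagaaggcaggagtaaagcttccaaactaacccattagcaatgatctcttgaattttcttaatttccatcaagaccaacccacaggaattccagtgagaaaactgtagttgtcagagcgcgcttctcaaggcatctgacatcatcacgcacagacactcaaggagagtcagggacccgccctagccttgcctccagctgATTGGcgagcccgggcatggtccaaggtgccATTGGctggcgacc
The Hmgcs1 sequence is chr13:119690101-119690350 and the Idi1 sequence chr13:8885356-8885605, both on the plus strand (RefSeq, GRCm38.p6). Hmgcs1 encodes the synthase that commits acetyl-CoA units to sterols. A CCAAT box was present for 16 of the 17 cholesterol genes in the table (94.1%), for 6 of 11 fatty acid genes (54.5%) and for 37.5% of all 27025 genes. The sterol element was present for 1 of the 17 cholesterol genes, Hmgcs1, and for 1.22% of all genes. These matches are letters in a window and are no evidence of binding.

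Mitochondrially encoded transcripts had higher values in Rbbp7 OE. Transcripts of chromosome M made up 8.97% and 9.78% of TPM in control, 11.2% and 11% in Rbbp7 OE and 10.5% and 9.89% in Rbbp4 OE. Of 11 tested genes, 8 were higher and 0 lower at the nominal level, with a median of 0.27 beside 0.39 for Rbbp4 OE against the same controls. Cytochrome b, mt-Cytb, was at 4284 and 4264 TPM in control and at 6142 and 6048 TPM in Rbbp7 OE, beside 6599 and 6609 TPM in Rbbp4 OE, and it rose by 0.51 ± 0.029 on the log2 scale (SE, limma adjusted p = 0.00393). The complex I subunit mt-Nd2 was at 1852 and 1895 TPM in control and at 2304 and 2212 TPM in Rbbp7 OE (log2 difference 0.27, limma adjusted p = 0.0692). Values of mt-Atp6, the ATP synthase subunit, varied within the groups, at 1577 and 704 TPM in control and 1514 and 1380 TPM in Rbbp7 OE. Among 78 respiratory chain genes of the nucleus, 7 were higher and 9 lower at the nominal level (20.5%, beside 15.8% of all tested genes). Their median was -0.03. With median-of-ratios scaling 3 were higher and 3 lower, without Rbbp7 OE replicate 1 there were 3 and 5, and without control replicate 2 there were 3 and 18.

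The integrated stress response list holds genes induced by the factor ATF4. Of 21 genes, 7 were lower and 2 higher at the nominal level, with a median of -0.1, and Psat1 was the member that fell. The amino acid transporter Slc7a5 was at 111 and 120.2 TPM in control and 85.1 and 85.7 TPM in Rbbp7 OE (log2 difference -0.43, limma adjusted p = 0.0689). This gene lies on chromosome 8 from 120 to 140 Mb, where the tested genes had a median of -0.3. The serine enzyme Phgdh was at 64.4 and 60.3 TPM in control and 44.1 and 32.1 TPM in Rbbp7 OE. The factor Atf4 itself was at 224 and 219 TPM against 209.6 and 204 TPM.

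Developmental genes differed in both directions. Of 17 tested Hox genes, which set positional identity, 6 were lower and 0 higher at the nominal level, with a median of -0.29, and 4 to 7 were lower when a single library was left out. Hoxa10 was at 5.65 and 7.04 TPM in control, 1.26 and 1.27 TPM in Rbbp7 OE and 0.98 and 1.07 TPM in Rbbp4 OE. Hoxa10 fell by 1.69 in Rbbp7 OE (limma adjusted p = 0.0329). Its neighbour Hoxa7 was at 4.54 and 6.76 TPM in control and 1.32 and 1.93 TPM in Rbbp7 OE (log2 difference -1.33, limma adjusted p = 0.0961). Hoxa9 was at 7.05 and 9.98 TPM in control, and at 2.85 TPM in Rbbp7 OE replicate 1 while it was listed at 0 in replicate 2. Signalling genes of the Nodal and BMP list were higher for 4 and lower for 1 of 14 at the nominal level. The ligand Bmp4 was at 9.54 and 9.26 TPM in control, 20.05 and 31.6 TPM in Rbbp7 OE and 12.2 and 12.6 TPM in Rbbp4 OE (log2 difference 1.33, limma adjusted p = 0.0706), with a wide gap between the 2 Rbbp7 OE libraries. Eomes, a T-box factor of mesendoderm and trophoblast, was at 5.32 and 6.01 TPM in control and 10.6 and 11.2 TPM in Rbbp7 OE (log2 difference 0.84, limma adjusted p = 0.0689). The other trophoblast genes were mixed, with Krt8 at 10.8 and 11.1 TPM against 20.1 and 22.3 TPM, and Cdx2 at 5.49 and 4.88 TPM against 2.99 and 3.56 TPM.

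Of 25 pluripotency genes, 6 were higher and 2 lower at the nominal level, with a median of 0.0087, and Utf1 was the member that rose. Tbx3 was at 137 and 149 TPM in control and 177 and 196 TPM in Rbbp7 OE (log2 difference 0.38, limma adjusted p = 0.124). Nanog was at 484 and 521 TPM in control and 483 and 484 TPM in Rbbp7 OE (log2 difference -0.06, limma adjusted p = 0.652). Esrrb, at 285 and 332 TPM against 301 and 311 TPM, overlapped between the groups. Of 8 tested genes of the early 2-cell-like state, 1 was higher at the nominal level, Sp5 at 0.28, and the cluster gene Zscan4f was at 1.18 and 0.85 TPM in control and 0.25 and 0.41 TPM in Rbbp7 OE. Of 33 imprinted genes, 6 were higher and 5 lower at this level, with Mest and Grb10 as the members that passed the adjusted test.

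Interferon response genes had the highest list median, 0.6, but it rested on 1 library. The pair medians ran from -0.04 to 0.79, and without Rbbp7 OE replicate 1 the median was -0.0042. The antiviral Ifit3 was listed at 0 in both control and both Rbbp4 OE libraries and stood at 5.76 and 0.17 TPM in the 2 Rbbp7 OE replicates. The RNA sensor Ddx58 did not follow that pattern, at 5.62 and 5.41 TPM in control and at 9.97 and 9.11 TPM in Rbbp7 OE (log2 difference 0.69, limma adjusted p = 0.0929). The fibroblast list of 7 tested genes had a median of 0.53, which was 0.1 without Rbbp7 OE replicate 1 and 0.89 without replicate 2. The collagen Col3a1 was at 6.39 TPM in Rbbp7 OE replicate 1 against at most 0.06 TPM in the other libraries. Some other members were higher in both Rbbp7 OE libraries. Thy1 was at 4.13 and 5.02 TPM in control, 7.01 and 7.04 TPM in Rbbp7 OE and 8.87 and 10.8 TPM in Rbbp4 OE. Col1a1 was at 0.29 and 0.46 TPM in control against 0.81 and 0.86 TPM in Rbbp7 OE. Col1a2, too low to be tested, was at 0.02 and 0.11 TPM against 1.3 and 0.79 TPM. Pdgfrb overlapped between the groups, at 2.41 and 2.62 TPM in control and 2.67 and 2.06 TPM in Rbbp7 OE. The part of other cells in these values was not tested.

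The median fold change differed little between genes of different length. Across classes of longest transcript, from 300 to 1000 nt up to over 8000 nt, the median log2 fold change lay between -0.02 and 0.0019. Across classes of genomic span it lay between -0.02 and 0.00053, and the 199 genes over 300 kb had a median of -0.01. Spearman's rank correlation, taken over 12384 genes that are no independent replicates of each other, was -0.0281 with transcript length and -0.0322 with span. The share of genes at the nominal level was 19.5% for transcripts of 300 to 1000 nt and 8.51% over 8000 nt, beside a median level of 26.1 and 6.62 TPM in those classes. The 2 control libraries themselves differed by length: control replicate 1 minus replicate 2 had a median of 0.1 in the shortest transcripts and -0.24 in the longest, with a rank correlation of -0.345, while the Rbbp7 OE replicates differed by 0.00082 to 0.02. In the class over 8000 nt the pair medians therefore ran from -0.12 to 0.12. Of 1426 genes with a span over 100 kb, 5 passed the adjusted test: Klhl13 and Grb10 fell, and Ubr4, Igsf21 and Coro2b rose.

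**Figure D4:**
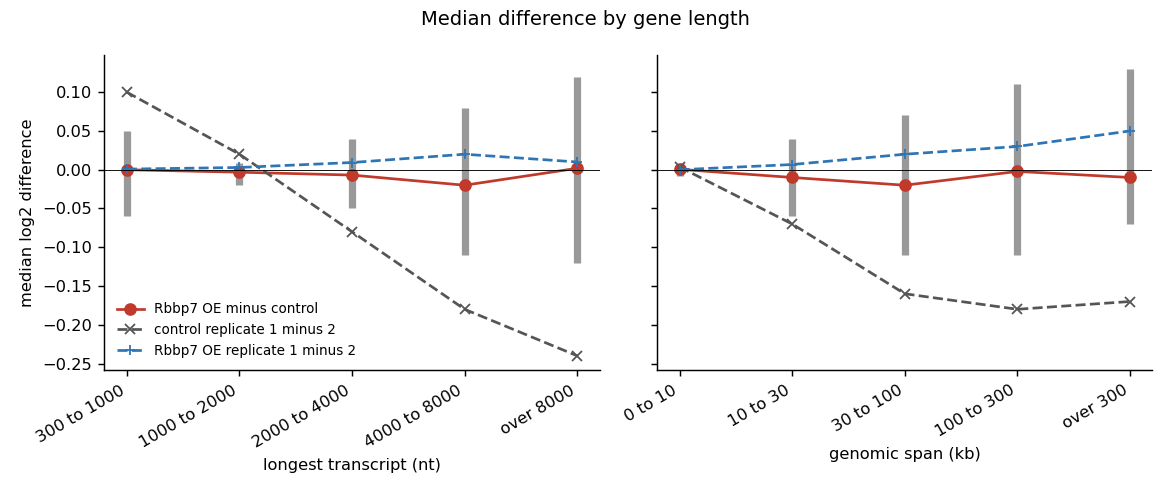
Median log2 difference by class of longest transcript (left, nt) and genomic span (right, kb): Rbbp7 OE minus control (red, grey bars for the range of the 4 library pairs), control replicate 1 minus 2 (dashed grey) and Rbbp7 OE replicate 1 minus 2 (dashed blue). The red line stays within 0.02 of 0, while the 2 control libraries separate to -0.24 in transcripts over 8000 nt.

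The calls were then set out by chromosome, as a description. Chromosome 8 held 673 of the tested genes (5.43%) and 9 of the 31 genes that fell (29%), with 0 of the 24 that rose. These 9 genes, Plekhg4, Ttc13, Gins2, Gnpat, Aprt, Got2, Psmd7, Gcsh and E2f4, all lie beyond 80 Mb, where 351 genes were tested, a limit set after seeing the data. In windows of 20 Mb, the 80 genes of chromosome 8 from 120 to 140 Mb had a median of -0.3, with 32 lower and 0 higher at the nominal level, and the 146 genes from 100 to 120 Mb had a median of -0.23, with 54 lower and 6 higher. The pair medians ran from -0.34 to -0.21 and from -0.29 to -0.16, so all 4 library pairs had lower values there. These were the lowest of 136 windows, whose median was -0.01 and whose highest was 0.09. The Rbbp4 OE medians against the same controls were -0.4 and -0.36.

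Chromosome 6 had a median of -0.06, and 4 of its 565 tested genes fell, Hoxa10, Adipor2, Slc2a3 and Tpi1, while 3 rose, Mest, Gadd45a and Trh. Its windows from 100 to 120 Mb and from 120 to 140 Mb had medians of -0.13 and -0.12. Adipor2 lies in the window from 100 to 120 Mb, and Slc2a3 and Tpi1 lie in the other. At the nominal level 16 of 72 genes were lower and 0 higher from 100 to 120 Mb. From 120 to 140 Mb, 33 of 110 were lower and 4 higher. The Rbbp4 OE medians against the same controls were -0.36 and -0.30. Some windows elsewhere were as low by the median. Chromosome 14 from 0 to 20 Mb had -0.16, and chromosome 4 from 0 to 20 Mb and X from 120 to 140 Mb had -0.12. In these, 6 of 31, 5 of 43 and 6 of 45 genes were lower at the nominal level, and 1, 1 and 0 were higher. The 7 tested genes of chromosome Y had a median of -0.53, and Eif2s3y and Ddx3y were the 2 that fell. Whether the copy number of any chromosome differed between the cell pools was not tested.

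**Figure D5:**
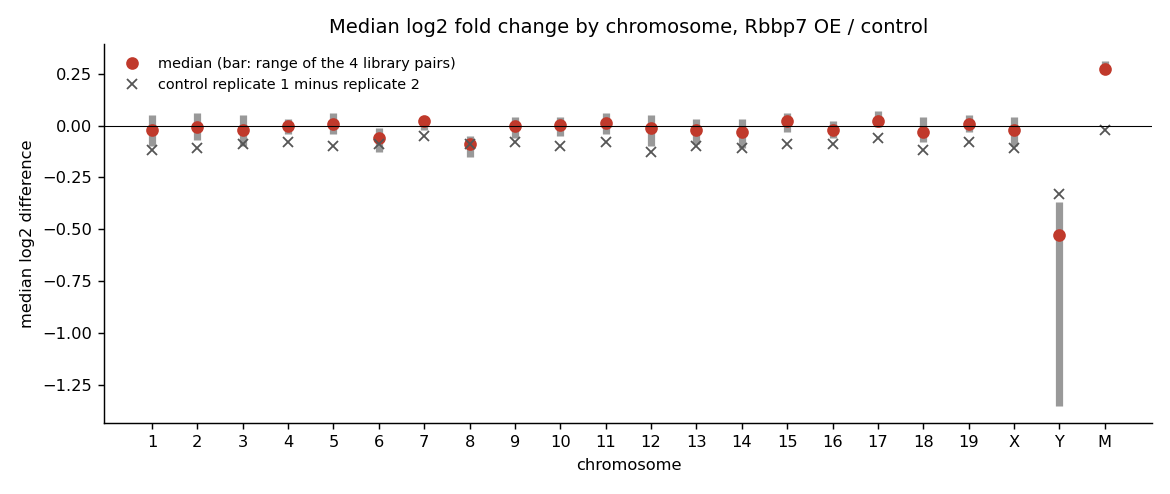
Median log2 fold change of Rbbp7 OE over control for the tested genes of each chromosome (red points, with grey bars for the range of the 4 library pairs) and the median of control replicate 1 minus replicate 2 (crosses). Chromosome 8 (-0.09) is the lowest autosome, the 7 genes of chromosome Y stand at -0.53 and the 11 of the mitochondrial chromosome M at 0.27.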

How the data were processed

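Poly(A) RNA of 46C mESCs was profiled in 6 libraries, 2 per group, assigned from the sample labels. By the study's methods, reads were trimmed (Trim_galore), aligned to mm10 (STAR) and turned into expression estimates (RSEM) by the authors. The authors deposited TPM values, 1 table per library with 55401 genes, and depth is not kept in this unit. Gene names, biotypes and positions came from GENCODE M21 on GRCm38, matched by identifier (55141 matched, 54349 with the same version). The study names a later release. Lengths are those of the longest transcript.

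The study tested counts. TPM values are not counts, so limma-trend (limma 3.58.1, R 4.3.3) was run on log2(TPM + 1), a scale that understates changes of low genes. All 14156 genes with a mean of at least 0.5 TPM over 6 libraries entered 1 fit of all groups without covariates (3 residual degrees of freedom), and p-values were Benjamini-Hochberg adjusted over all of them. The script was tested on simulated data. Of the 6 pairs of control and Rbbp7 OE libraries, none shared more than 0.799% of values exactly, so no library was counted as a copy.

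The members and gene lists were chosen with earlier results of these data known. Genes named were Rbbp7, Rbbp4, the calls at the study's threshold, the 15 largest increases and 15 largest decreases that passed, list members that passed, the 2 smallest p-values in each list, and cell type markers. Others were named after their values were seen, and a few that the rule names are not reported here. Alternatives were other pseudocounts, filters, scalings, a GC and length correction, a replicate block and leaving out libraries.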

Additional observations from a re-analysis of the deposited data

Results flagged for a closer look

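The effect on Rbbp7 itself differed between the overexpression groups: the log2 fold change of Rbbp7 OE over Rbbp4 OE was 1.79 (limma adjusted p = 8.3e-05), with 725 and 748 TPM against 208 and 217 TPM. Only the Rbbp7 OE cells received the vector with Rbbp7, so this difference was set by the design and serves as a check of the overexpression.

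A signal appeared in genes left out of the comparison for their length. Gm14567, a predicted gene of 174 nt on the X chromosome, had a mean of 113 TPM in Rbbp7 OE (146 and 79.96 TPM) and was listed at 0 in all 4 other libraries. Gm3511, a predicted gene of 204 nt, showed the opposite, at 26.2 and 22.6 TPM in control and listed at 0 for each library of Rbbp7 OE. A value of 0 for so short a transcript can be a failed estimate. Outside the protein-coding genes over 300 nt, 14 of 1772 fitted genes passed a limma adjusted p of 0.05.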

How the results depend on the processing

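The increase of Rbbp7 lay between 1.60 and 1.67 on the log2 scale in each alternative. Its limma adjusted p was 0.0339 at an increase of 1.63 when the 2 groups were fitted without Rbbp4 OE, and it was 0.015 to 0.0351, at increases of 1.60 to 1.65, when a library was left out. The count of 3 genes at the study's threshold became 1 without a filter on low values, 5 with a mean of at least 5 TPM, 5 with the protein-coding genes fitted alone, 0 in the 2-group fit, 0 without any single library, 0 without both libraries that stood apart, 15 with an adjusted p of 0.05 and 5 with no fold minimum. The count of 55 genes became 4 without a filter, 120 with a mean of at least 5 TPM, 102 with the protein-coding genes alone, 25 with median-of-ratios scaling, 1 in the 2-group fit, 1 to 36 without a single library and 0 without both libraries that stood apart. Fits with fewer libraries have fewer residual degrees of freedom, and where a library was left out the remaining sample was given the spread of the other groups. The replicate block gave 2 genes at the study's threshold and 6 at an adjusted p of 0.05, and with the GC and length correction 2 and 4. Replicate numbers did not pair the samples: deviations of same-numbered libraries correlated at 0.00782 between control and Rbbp7 OE. The share of calls that were higher was 43.6%, and it was 75% without a filter and 91.7% without Rbbp7 OE replicate 2. All 55 genes kept their direction under every alternative that tested them.

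Among genes near 0, Esrrb (-0.0048) was at 0.0038 with median-of-ratios scaling, 0.02 with quantile normalization, -0.12 to 0.11 without a single library (0.11 without control replicate 2), 0.02 without Rbbp7 OE replicate 1 and 0.02 without both libraries that stood apart. Rbbp4 (-0.03) was at 0.004 with quantile normalization and 0.02 with the GC and length correction, with or without the block. Pdgfrb (-0.07) was at 0.06 without Rbbp7 OE replicate 2 and -0.20 without replicate 1. The cause of these changes was not tested. List medians ranged from 0.28 to 0.38 for FGF and ERK feedback genes, 0.25 to 0.32 for mitochondrially encoded genes, -0.28 to -0.17 for cholesterol synthesis, -0.27 to -0.13 for fatty acid synthesis and -0.43 to -0.1 for Hox genes.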

Other observations

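At the nominal level (a limma p under 0.05 before adjustment), 7.3% of all tested genes were higher and 8.51% lower. Of 77 ribosomal protein genes, 14 were lower and 1 higher at this level, with a median log2 fold change of -0.08. The count depended on the scaling and on single libraries: 4 were lower with median-of-ratios scaling, 30 with the GC and length correction, 4 without Rbbp7 OE replicate 1, 5 without Rbbp7 OE replicate 2, 7 without control replicate 1 and 50 without control replicate 2. Rpl37, of the large subunit, was at 810.3 and 821 TPM in control and 672 and 693 TPM in Rbbp7 OE (log2 difference -0.26, limma adjusted p = 0.0706). Of 35 replication genes, 7 were lower and 0 higher at this level, with a median of -0.06. Without Rbbp7 OE replicate 1, 2 were lower, without Rbbp7 OE replicate 2, 3 were, without control replicate 1, 13 were, and without control replicate 2, 4 were lower and 3 higher. The licensing factor Cdt1 was at 185 and 191 TPM in control and 153 and 158 TPM in Rbbp7 OE (log2 difference -0.27). Gins2 was the member that fell. Both genes lie on chromosome 8 from 120 to 140 Mb, where the tested genes had a median of -0.3. Replication-dependent histone genes varied within the groups, with 2 higher and 6 lower of 39. Hist1h2af was at 4.01 and 6.77 TPM in control and at 0.72 TPM in Rbbp7 OE replicate 1, and was listed at 0 in replicate 2. Hist1h4n went the other way, at 0 and 1.06 TPM in control and 6.58 and 3.98 TPM in Rbbp7 OE. These transcripts lack a poly(A) tail as a rule.

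Of the cytoplasmic actin genes, Actg1 fell from 2040 and 2001 TPM to 1633 and 1584 TPM. Actb was at 1432 and 1472 TPM in control and at 1813 and 1714 TPM in Rbbp7 OE (log2 difference 0.28, limma adjusted p = 0.177). Of 9 genes of DNA methylation and demethylation, 1 reached an unadjusted p under 0.05, the cofactor Dnmt3l, at 45.3 and 41.8 TPM in control and 58.02 and 55.2 TPM in Rbbp7 OE. The neural and formative factor Zic2 was at 9.57 and 10.2 TPM in control and 16.2 and 17.4 TPM in Rbbp7 OE (log2 difference 0.71, limma adjusted p = 0.0706). Of 318 Zfp zinc finger genes, 23 were higher and 10 lower at the nominal level, with a median of 0.02. In either direction this was 10.4%, beside 15.8% of all tested genes. The counts were 11 and 6 without Rbbp7 OE replicate 1, 14 and 4 without Rbbp7 OE replicate 2, 16 and 22 without control replicate 1, 41 and 3 without control replicate 2, and 12 and 8 without either Rbbp4 OE library. Of 20 p53 target genes, 2 were higher and 0 lower (10%, beside 15.8% of all tested genes). The apoptosis gene Bbc3 was at 35.4 and 33.5 TPM in control and 49.4 and 48.2 TPM in Rbbp7 OE.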
